A study of Ovis aries with 4 samples.

Results

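Genes for chromatin modifiers and remodellers carried N6-methyladenosine (m6A) peaks in ovaries of Cele black sheep, and 66 of the 5261 genes with a peak at either age belonged to this group. They were chosen by name: every gene listed with a peak whose symbol starts with KDM, KMT, SETD, SETDB, HDAC, NSD, DNMT, TET, EHMT, KAT, ARID, CHD, BRD, PHF, PRDM, EZH, ASXL, ING, CBX or SMARC. The names fall into 12 families of enzymes, remodellers and readers. The prefixes also take BRD3OS, an opposite-strand gene beside BRD3 and no bromodomain gene, and SETD3, described in the deposited annotation as an actin-histidine methyltransferase. Aged ovaries came from animals of 5 to 6 years and young ovaries from animals of 1 to 2 years. At each age RNA fragments were immunoprecipitated with an antibody against m6A and sequenced beside an input without antibody, which gives 4 samples in all. The labels name no treatment and no pooling of animals. The immunoprecipitate of each age has 1 peak list, and the inputs were not analysed here.

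Chromatin is controlled by enzymes that add or remove small groups on histone tails and on DNA, by reader proteins that dock on those groups, and by remodelling motors that use ATP to slide or eject nucleosomes. Lysine methyltransferases and acetyltransferases write, demethylases and deacetylases erase, and bromodomain, chromodomain and PHD finger proteins read. In the ovary these proteins act in oocytes, where DNA methylation is laid down during growth, and in granulosa and stromal cells as cofactors of hormone-driven transcription. m6A is a mark on internal adenosines of messenger RNA, found mostly near stop codons, in 3' UTRs and in long internal exons, and it is bound by proteins that act on decay, splicing and translation.

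Peaks mark transcript regions that the antibody pulled down above background. Their folds, p-values and adjusted p-values were computed by the authors. The aged list held 3656 peaks in 3086 genes and the young list 4378 peaks in 3846 genes. No peak had a fold below 1.5. Sequencing depth is unknown, and the ages have 1 list each, so the differences below have no replicate check, were not tested and are given without p-values. Intervals are 95% Wilson intervals and cover counting error only. Without the input, transcript abundance is unknown, so a change of transcript level and a change of methylation cannot be told apart. In bulk tissue, fewer cells of a type and less RNA per cell cannot be told apart either.

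The aged list held 64 peaks in 48 chromatin genes and the young list 52 peaks in 44. Of the 66 genes, 22 had a peak in the aged list only, 18 in the young list only and 26 in both. The aged-only share was 33.3% (23.2 to 45.3), near the 26.9% of all genes with a peak. The young-only share was 27.3% (18.0 to 39.0), against 41.3% of all genes, and the share in both lists was 39.4% (28.5 to 51.5), against 31.8%. The interval of the young-only share lay below the value of all genes, and the intervals of the aged-only and shared shares held it. With only peaks of a fold of at least 2 the counts were 13 aged-only, 16 young-only and 9 in both, so the order of the aged-only and young-only counts turned. With that setting the young-only share was 42.1% (27.9 to 57.8), and its interval held the 54.7% of all genes. The interval also held the value of all genes with exon and UTR labels only (23.7%, 14.7 to 35.97, against 32.4%) and without peaks that cross an intron (32.1%, 21.1 to 45.5, against 44.6%). The low young-only share lay on the plus strand, with 7 of 38 genes (18.4%, 9.22 to 33.4), against 42.8% of all plus-strand genes. The chromatin genes of the minus strand lay near the share of all minus-strand genes.

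**Figure D1:**
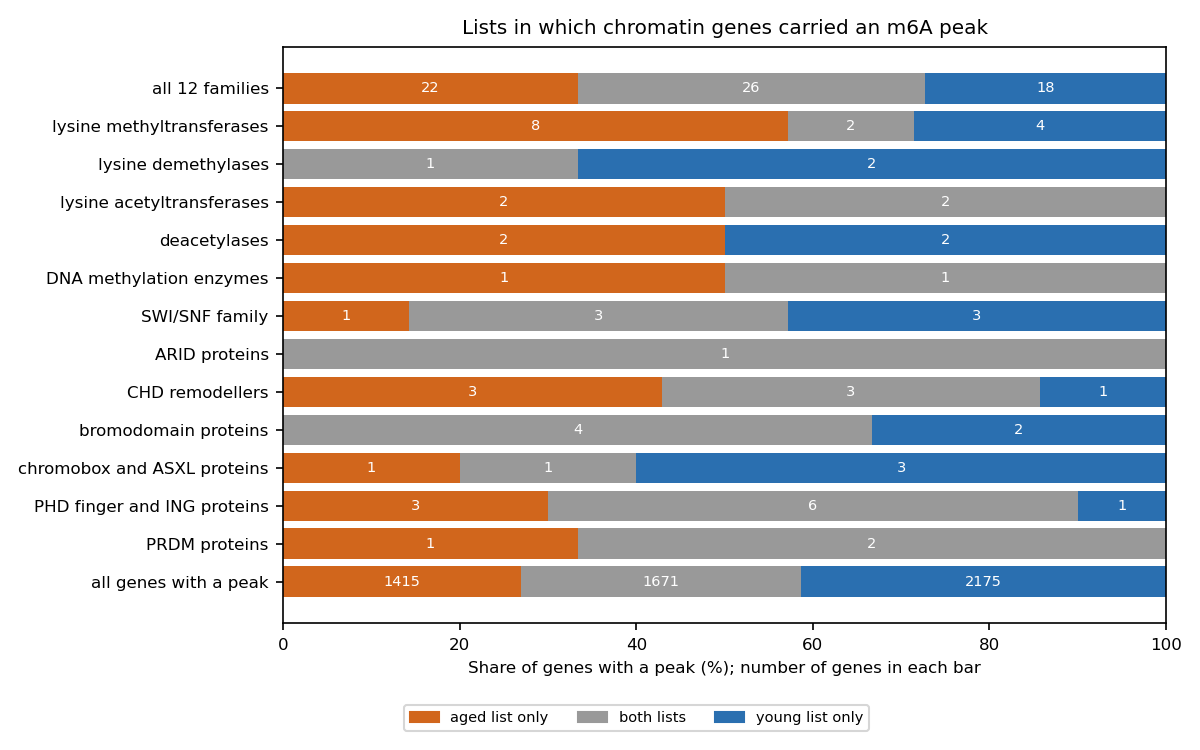
Share of genes with an m6A peak in the aged list only (orange), both lists (grey) or the young list only (blue), for each family and for all genes with a peak (x axis, percent; numbers are genes). Lysine methyltransferases, SETD3 included, have 8 aged-only genes of 14, and the BRD names, BRD3OS included, none of 6, against 26.9% of all genes with a peak.

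In the RefSeq gene table, 159 protein-coding genes match the naming rule, and 68 of them (42.8%, 35.3 to 50.5) had a peak, against 24.5% of 21300 protein-coding genes. The 68 include BRD10 and SETDB2, which the deposited files list under other names and which are not counted among the 66. By family, 6 of 8 bromodomain genes (without BRD3OS), 7 of 11 CHD names (CHD9NB included) and 15 of 26 lysine methyltransferase genes had a peak. Among lysine demethylase genes 3 of 16 had a peak, and among ARID genes 1 of 10. The maintenance DNA methyltransferase gene DNMT1, the Polycomb methyltransferase gene EZH2, the deacetylase genes HDAC1 and HDAC2 and the remodelling subunit gene ARID1A had no peak listed at either age. The genes of the naming rule are long: the median length was 43559 bases, introns included, against 17652 bases for all protein-coding genes, and the part of length in these shares was not tested.

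Lysine methyltransferase genes, grouped by name and the largest of the 12 families with 14 genes, were 8 aged-only (57.1%, 32.6 to 78.6), SETD3 included. A further 4 were young-only (28.6%, 11.7 to 54.6) and 2 were in both lists (14.3%, 4.01 to 39.9). Over all genes with a peak these shares were 26.9%, 41.3% and 31.8%, and the difference was not tested. The SETD genes with a peak, only 5 in number, were all aged-only, as were 26.9% of all genes with a peak. SETD5 had a fold of 2.33 in aged ovaries, SETD6, whose product methylates the NF-kappaB subunit RELA, 2.00, SETD3 1.96, and SETD1B, whose product methylates histones at promoters, 1.5. SETD2, the methyltransferase of transcribed gene bodies, had 2 aged peaks with folds of 1.95 (3' UTR) and 1.52 (exon). The enhancer methyltransferase gene KMT2D (2.14) and EZH1 (1.73 and 1.53), the paralogue of EZH2, were aged-only too. KMT2E, whose product is annotated as inactive, had 3 aged peaks in exons, with folds of 1.86, 1.59 and 1.5. All of these aged folds lay between 1.5 and 2.33.

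KMT2A, the mixed-lineage leukaemia methyltransferase gene, had 2 peaks at each age, and both pairs overlapped. The peak on chromosome 15 (28928360 to 28928510) had identical boundaries at both ages, with folds of 2.20 in aged and 1.64 in young ovaries. In the aged list a second peak lay 946 bases downstream, and it overlapped the second young peak. The folds of this pair were 3.6 in aged and 2.00 in young ovaries. It was labelled stop codon in the aged and 3' UTR in the young list, with boundaries 49 and 50 bases apart. Both aged KMT2A peaks carried the smallest p-value of any aged chromatin peak, with a log10 p of -23.4. NSD1, which methylates histones in gene bodies and between genes, also had peaks at both ages, but none overlapped, and the nearest were 299 bases apart. Its aged peaks had folds of 2.43, 1.80 and 1.61, the first 2 with authors' adjusted p of 0.127 and 0.216, and its young peaks 1.97 and 1.52. Its relatives NSD2 (1.93) and NSD3 (2.20) were young-only, as were KMT5A (1.62), a methyltransferase active in mitosis, and EHMT2 (2.00), a writer of repressive methylation. Thus none of the 3 NSD genes was aged-only, where 26.9% of all genes with a peak were. The single young peak in an exon among methyltransferase genes was that of EHMT2.

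**Figure D2:**
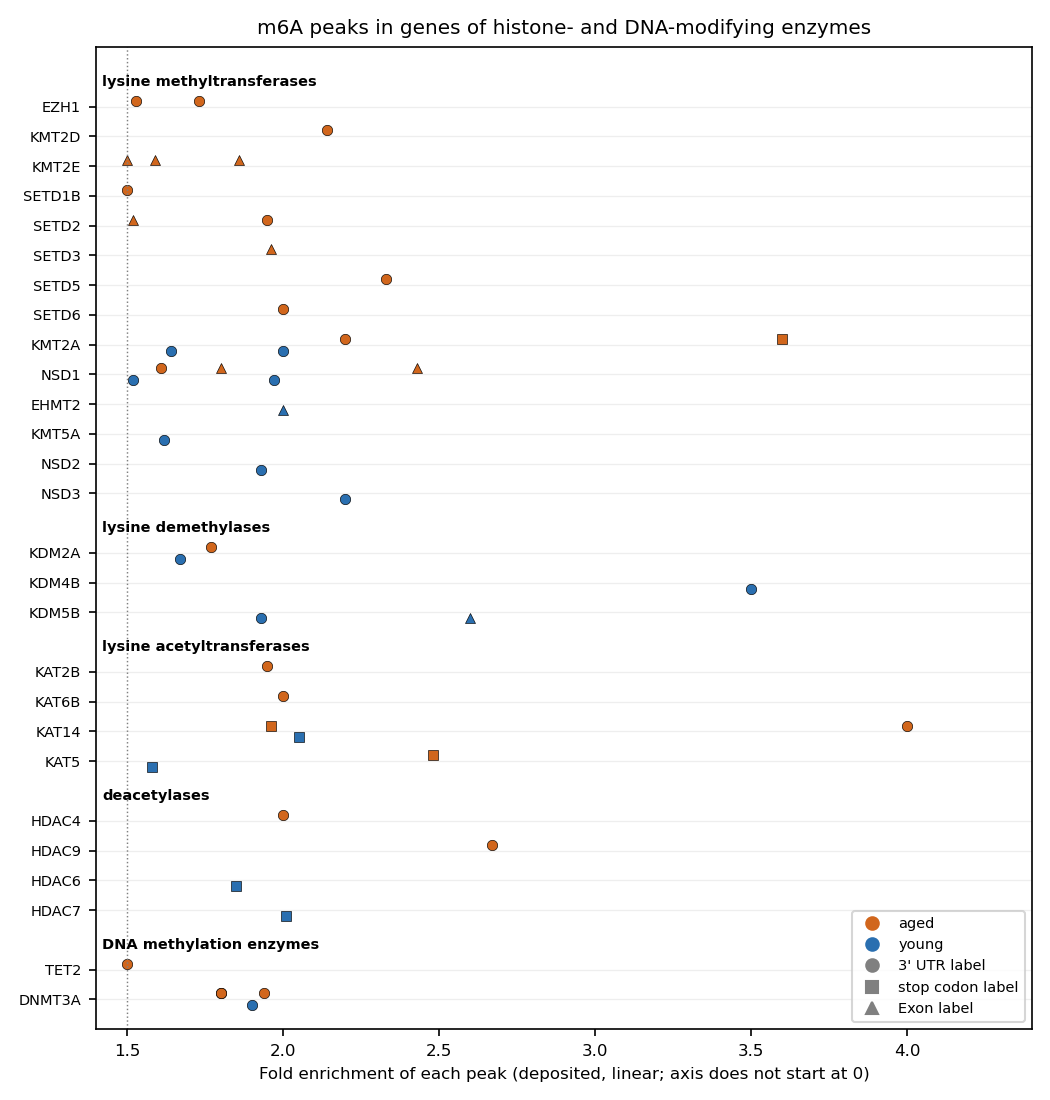
Deposited fold enrichment of every peak (x axis, linear, not starting at 0) in genes of methyltransferases, demethylases, acetyltransferases, deacetylases and DNA methylation enzymes, aged in orange and young in blue, with the feature label as the symbol. The aged peaks of KAT14 at 4.00 and KMT2A at 3.6 lie highest, followed by the young peak of KDM4B at 3.5.

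Acetyltransferase genes had no young-only member (0 of 4, 0 to 49.0%), but this interval holds the 41.3% of all genes with a peak. KAT14, a subunit of an acetyltransferase complex, had a peak labelled stop codon on chromosome 13 (37954173 to 37954421). It had the same boundaries at both ages, with folds of 1.96 in aged and 2.05 in young ovaries. A further aged peak 2379 bases upstream had a fold of 4.00, the highest aged fold of the 64, and no young counterpart. KAT5, also known as TIP60, had a peak ending at the same base at both ages, with folds of 2.48 in aged and 1.58 in young ovaries, but the aged peak was wider by 250 bases and its p-value was weak, with an adjusted p of 0.0339. KAT2B (1.95), also known as PCAF, and KAT6B (2.00) were aged-only.

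Of the eraser genes in the gene table, 7 of 27 (25.9%, 13.2 to 44.7) had a peak, against 24.5% of all protein-coding genes. Of the 3 lysine demethylase genes with a peak, KDM2A had overlapping 3' UTR peaks with folds of 1.77 in aged and 1.67 in young ovaries. KDM4B (3.5) and KDM5B (2.60 in an exon and 1.93 in the 3' UTR) were young-only. Of the 4 deacetylase genes with a peak, HDAC9 (2.67) and HDAC4 (2.00), both of class IIa, were aged-only with 3' UTR peaks. HDAC7 (2.01), also of class IIa, and HDAC6 (1.85), a cytoplasmic deacetylase of tubulin, were young-only with stop codon labels. No deacetylase gene was shared between the lists (0 of 4, 0 to 49.0%), but this interval holds the 31.8% of all genes with a peak.

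Of the DNA methylation enzymes, DNMT3A, the de novo methyltransferase gene, had 3 aged peaks and 1 young peak, all labelled 3' UTR. The aged folds were 1.94, 1.80 and 1.80 and the young fold 1.90, but the nearest aged and young peaks lay 4736 bases apart. TET2, which oxidises methylcytosine, was aged-only with a fold of 1.5, at the lower limit of the list.

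SMARCA4, also known as BRG1, the ATPase of SWI/SNF complexes, had 2 peaks at each age that overlapped pairwise. One had identical boundaries on chromosome 5 (13284249 to 13290597), with 151 bases of exon and folds of 2.50 in aged and 2.20 in young ovaries. The other, labelled 3' UTR, had folds of 1.69 in aged and 2.10 in young ovaries. SMARCE1 (1.65 in aged and 1.90 in young ovaries) and SMARCAL1 (1.81 in aged and 1.71 in young ovaries), which reanneals DNA at stalled replication forks, also overlapped. SMARCA5, the ISWI-type ATPase gene, was aged-only (2.48), and the SWI/SNF genes SMARCC2 (2.50), SMARCA2 (1.70) and SMARCD3 (1.68) were young-only. ARID1B, a SWI/SNF subunit gene, had a pair of overlapping peaks shifted by 50 bases, with folds of 2.20 in aged and 2.67 in young ovaries, and a second aged peak (2.00).

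Among CHD remodellers, CHD1 and CHD4 had overlapping exon peaks. CHD1 had folds of 2.29 in aged and 1.80 in young ovaries, and CHD4, the ATPase of the NuRD complex, 1.82 in aged and 1.85 in young ovaries. CHD6 had a fold of 2.40 at both ages in different places, with an aged 3' UTR peak and a young exon peak 110017 bases apart in the genome. CHD1L (2.50 and 1.86), CHD8 (1.77 and 1.72) and CHD7 (1.67) were aged-only. CHD3 was young-only with a fold of 4.29 in the 3' UTR, the second highest of the young chromatin peaks.

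Of 5 bromodomain genes, none was aged-only and 4 were shared (80%, 37.6 to 96.4), against 31.8% of all genes with a peak. BRD3, a BET family gene, had the highest fold of all chromatin peaks, 6.25 in a young exon peak on chromosome 3 (2155869 to 2158370). The overlapping aged peak had a fold of 2.75. A second BRD3 pair, in the 3' UTR, had folds of 1.70 in aged and 3.09 in young ovaries. The p-values were weak for these folds, with a log10 p of -2.41 for both aged peaks and -5.39 for the young exon peak. BRD2 had an aged peak of 1298 exonic bases (1.68) that covered the weaker (1.86) but not the stronger (2.16) of its 2 young exon peaks. The peaks of BRD9, a SWI/SNF subunit gene, were labelled start codon at both ages, with folds of 1.57 in aged and 2.38 in young ovaries. BRD7 (2.00) was young-only, as was BRD3OS (1.57), which is no bromodomain gene. Whether counting used the strand is not given in the sources used here, so reads of BRD3OS and of a transcript on the opposite strand may not be separable.

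**Figure D3:**
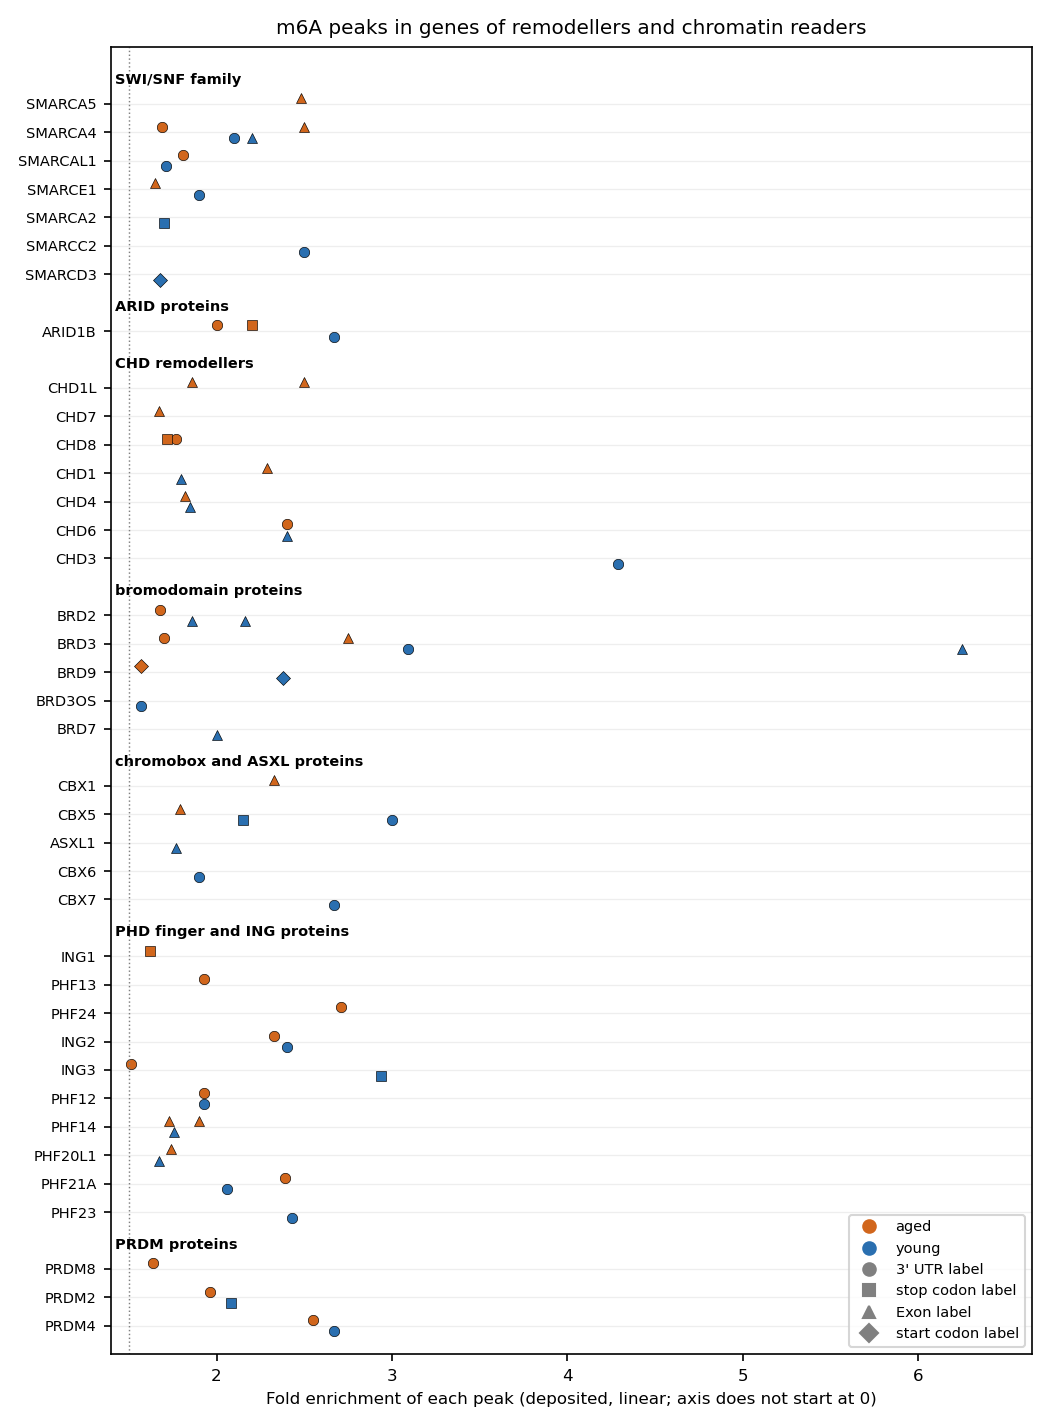
Deposited fold enrichment of peaks (x axis, linear, not starting at 0) in named genes of SWI/SNF, ARID and CHD remodellers and of bromodomain, chromobox, ASXL, PHD finger, ING and PRDM proteins, aged in orange and young in blue, with the feature label as the symbol. The young peaks of BRD3 at 6.25 and CHD3 at 4.29 stand highest, and most other peaks lie below 3.

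Of 4 chromobox genes, 1 was aged-only, 2 were young-only and 1 was in both lists. CBX7 (2.67) and CBX6 (1.90), Polycomb readers, and ASXL1 (1.77), a partner of the deubiquitinase BAP1, were young-only. CBX1 (2.33), which encodes a heterochromatin protein 1 isoform, was aged-only. CBX5, which encodes another isoform, had 2 young peaks (3.00 and 2.15) and an aged exon peak (1.79) that lay 1447 bases from the nearest of them.

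PHD finger and ING genes were shared in 6 of 10 cases (60.0%, 31.3 to 83.2), an interval that holds the 31.8% of all genes with a peak. PHF21A (2.39 in aged and 2.06 in young ovaries), PHF20L1 (1.74 in aged and 1.67 in young ovaries) and PHF14 (1.73 in aged and 1.76 in young ovaries) had overlapping peaks. So did ING2 (2.33 in aged and 2.40 in young ovaries) and ING3 (1.51 in aged and 2.94 in young ovaries), subunit genes of deacetylase and acetyltransferase complexes. PHF12 had a fold of 1.93 at both ages in peaks 148 bases apart. PHF14 had a further aged exon peak (1.90). PHF24 (2.71), PHF13 (1.93) and ING1 (1.62) were aged-only, and PHF23 (2.43) was young-only. Of the PRDM genes, PRDM4 (2.55 in aged and 2.67 in young ovaries) and PRDM2 (1.96 in aged and 2.08 in young ovaries) had overlapping peaks, and PRDM8 was aged-only (1.64).

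Where a gene had peaks in both lists, their spans mostly overlapped, introns included, in chromatin genes as in all genes. Of the 26 shared genes, 21 (80.8%, 62.1 to 91.5) had an overlapping pair sharing 1 base or more on one strand, against 84.3% of all 1671 shared genes. The exceptions were CBX5, CHD6, DNMT3A, NSD1 and PHF12. Of the 24 overlapping pairs, 12 had both boundaries within 50 bases, and 3 of these, in KAT14, KMT2A and SMARCA4, were identical. The label was the same in 18 of the 24 pairs, and 7 pairs were labelled exon at both ages. The aged peak had the higher deposited fold in 10 pairs and the young peak in 14, and since the lists may differ in depth no direction is read from this. Over all chromatin peaks, 37.5% (26.7 to 49.7) of the aged and 46.2% (33.3 to 59.5) of the young peaks overlapped the other list, against 41.0% of all aged and 34.3% of all young peaks.

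Exon labels made up a larger share of the chromatin peaks than of all peaks at both ages. In the aged list 22 of 64 (34.4%, 23.9 to 46.6) were labelled exon, against 15.3% of all 3656 aged peaks. In the young list 14 of 52 (26.9%, 16.8 to 40.3) were, against 9.30% of all 4378 young peaks. On the plus strand the exon share was 38.6% (25.7 to 53.4) of aged chromatin peaks, against 13.6% of all. For young plus-strand peaks it was 31.25% (18.0 to 48.6) against 8.66%. On the minus strand exon labels fell on 5 of 20 aged and 4 of 20 young chromatin peaks. The intervals of these shares (11.2 to 46.9 and 8.07 to 41.6) held the 17.1% and 10.1% of all minus-strand peaks. No excess is read on that strand. Counted by gene, 17 of 48 aged chromatin genes (35.4%) had an exon peak, against 16.3% of all aged genes, and 13 of 44 young chromatin genes (29.5%), against 10.3% of all young genes. Exon peaks were found at both ages in genes that included BRD3, CHD1, CHD4, PHF14, PHF20L1 and SMARCA4. The aged list alone held them in CBX1, CBX5, CHD1L, CHD7, KMT2E, NSD1, SETD2, SETD3, SMARCA5 and SMARCE1. The young list alone held them in ASXL1, BRD2, BRD7, CHD6, EHMT2 and KDM5B. These lists go by label and not by place. The aged exon peak of SMARCE1 overlapped a young peak labelled 3' UTR. A young exon peak of BRD2 overlapped an aged peak labelled 3' UTR. No exon label fell on an acetyltransferase, deacetylase, DNA methylation, ARID or PRDM gene. Each of these families held at most 5 aged and 2 young peaks, so no family trait is read from this.

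Most exon-labelled peaks crossed an intron, 14 of 22 in aged and 12 of 14 in young chromatin genes, as did 60.8% of all aged and 69.5% of all young exon-labelled peaks. Among peaks within 1 exon, 17.02% of the aged (8 of 47) and 5.56% of the young (2 of 36) chromatin peaks were labelled exon, against 7.73% of all such aged and 3.41% of all such young peaks. The young share within 1 exon thus rests on 2 peaks. At equal list lengths the young exon share was 18.2%, against 8.26% of all peaks.

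**Figure D4:**
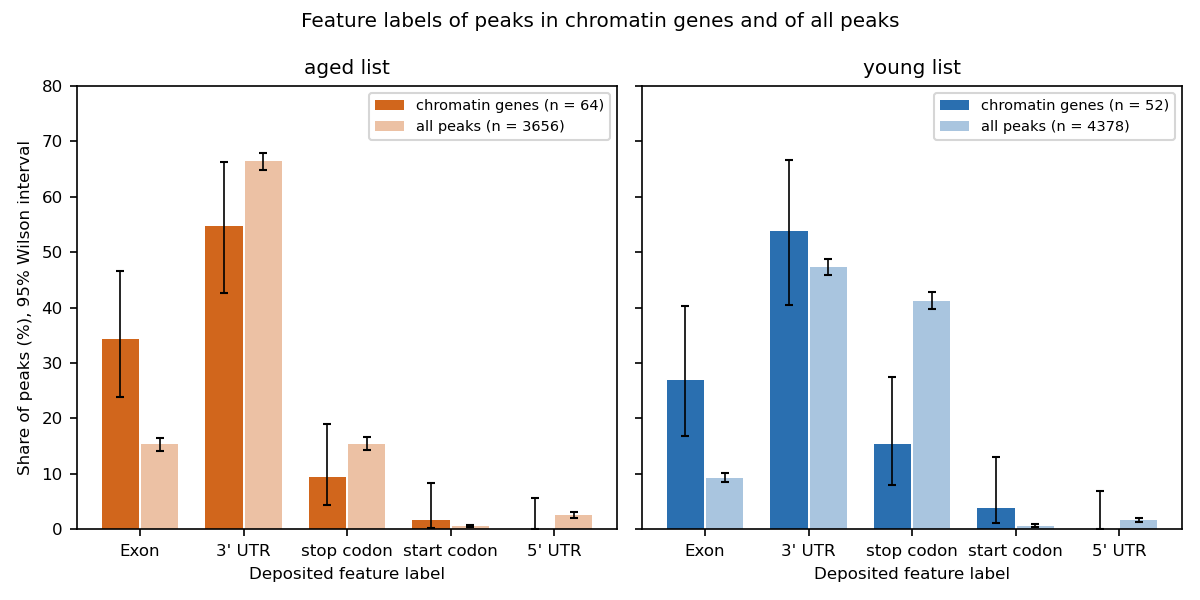
Share of peaks (y axis, percent) with each deposited feature label among peaks of chromatin genes (dark) and all peaks (light), in the aged list (left) and the young list (right), with 95% Wilson intervals as bars. The exon share is 34.4% against 15.3% in the aged list and 26.9% against 9.30% in the young list. The share of the stop codon label is 15.4% against 41.3% in the young list. Chromatin peaks with this label end at or just past the last base of the gene.

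The stop codon label was given to 15.4% (8.01 to 27.5) of young chromatin peaks, against 41.3% of all young peaks. Of the aged ones it was given to 9.38% (4.37 to 19.0) against 15.3%. Every chromatin peak with this label ended at or just past the last base of its gene. In ARID1B, CBX5, CHD8, KAT14 and KMT2A it lay downstream of a 3' UTR peak of the same list. In chromatin genes the label thus marks the gene end, and no share at translation stops is read from it. All 6 aged stop codon labels, in ARID1B, CHD8, ING1, KAT14, KAT5 and KMT2A, lay on the plus strand. This strand held 68.8% of the aged chromatin peaks, against 51.3% of all aged peaks. On it the label was given to 13.6% (6.40 to 26.7) of aged chromatin peaks, against 27.5% of all aged peaks. On the minus strand it was given to 0 of 20, against 2.58% of all aged peaks. The 3' UTR label was given to 54.7% of aged and 53.8% of young chromatin peaks. Over all peaks it was given to 66.4% in the aged and 47.3% in the young list. For aged chromatin peaks it was 45.5% against 56.4% of all on the plus strand, and 75.0% against 76.9% on the minus strand. Start codon labels fell on BRD9 at both ages and on SMARCD3 in young ovaries. No chromatin peak was labelled 5' UTR (0 of 64 aged and 0 of 52 young peaks, where 3 counts would be 4.69% of the aged and 5.77% of the young), a label given to 2.49% of all aged and 1.55% of all young peaks.

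The median distance from the peak to the last base of the gene, introns included, was 1266 bases in the aged and 1245 bases in the young list, against 647 bases over all aged and 250 bases over all young peaks. As a share of gene length the peak centres lay at nearly the same place, with a median of 96.1% in aged chromatin genes against 96.3% over all aged peaks, and 97.0% in young ones against 97.5% over all young peaks. Among peaks labelled 3' UTR the median distance was 948 bases in aged chromatin genes, against 584 bases over all aged peaks, and 547.5 bases in young ones, against 942 bases over all young peaks, so the order differed between the ages. Peaks ended at the last base itself in 5 of 64 aged (7.81%) and 6 of 52 young cases (11.5%), against 9.10% of all aged and 29.4% of all young peaks with a gene table entry. All of these chromatin peaks carried the stop codon label. The centre was nearer the 5' than the 3' end of the gene in 5 aged (7.81%) and 6 young (11.5%) chromatin peaks, against 7.18% of all aged and 6.13% of all young peaks. They included the exon peaks of PHF14, at 5.15% of the gene length in aged and 5.11% in young ovaries, and of SMARCA4, at 34.0% at both ages, and the start codon peaks of BRD9. The young exon peaks of BRD7 (22.7%), EHMT2 (34.4%) and CHD6 (39.5%) completed the young ones, and the aged ones also held the second PHF14 peak (39.4%) and SETD6 (39.1%, labelled 3' UTR). Aged chromatin genes had a median length of 64306 bases and young ones of 43047 bases, against 31711 bases over all genes of the aged and 26665 bases over all genes of the young list.

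**Figure D5:**
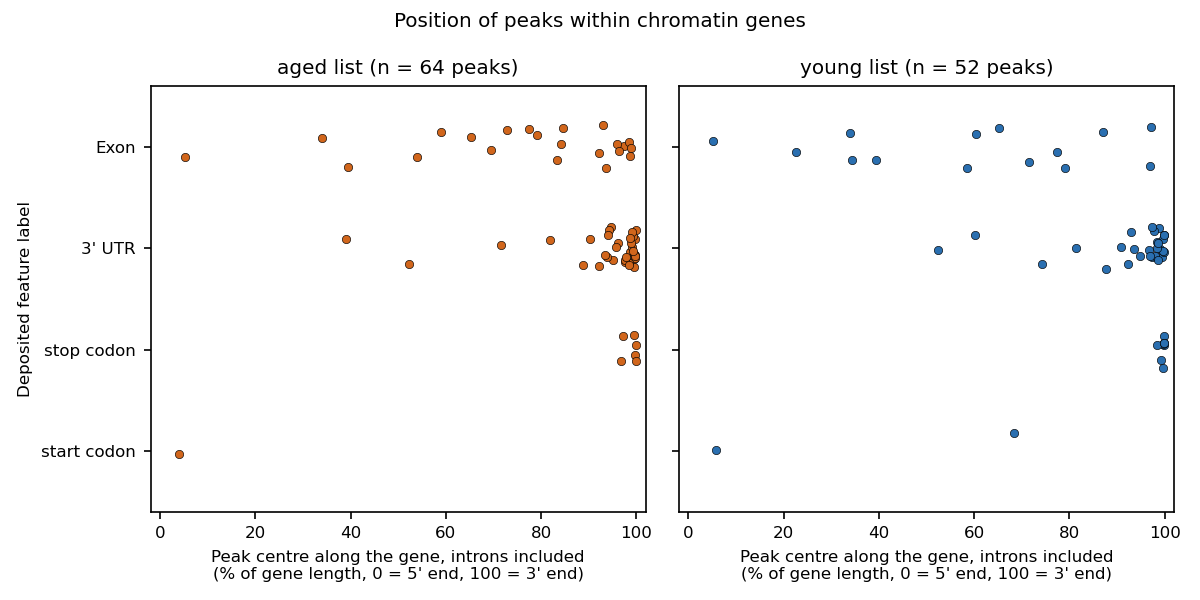
Position of each chromatin gene peak along its gene (x axis, peak centre in percent of gene length, introns included, 0 at the 5' end) by feature label, aged left and young right. Peaks labelled stop codon and most peaks labelled 3' UTR sit close to 100, and exon peaks spread from about 5 upwards.

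Median strength was close to that of the whole list. The median fold was 1.915 in the aged chromatin peaks (order-statistic 95% interval 1.79 to 2.00), against 1.88 over all aged peaks, and 2.00 (1.90 to 2.16) in the young ones, against 2.05. The median log10 p was -6.61 in aged and -15.3 in young chromatin peaks, against -6.22 over all aged and -15.3 over all young peaks. The exon-labelled peaks were no stronger, with medians of 1.84 in aged and 1.93 in young chromatin genes. Folds below 1.6, close to the limit of the lists, were found for 8 aged and 4 young peaks. More than 1 peak was found in 13 of 48 aged chromatin genes (27.1%, 16.6 to 41.0) and in 8 of 44 young ones (18.2%, 9.51 to 32.0), against 15.1% of all aged and 12.1% of all young genes. DNMT3A, KMT2E and NSD1 had 3 aged peaks each. Neighbouring peaks of a gene had the same deposited p in 8 of 16 aged and 1 of 8 young neighbouring pairs, against 37.4% of all aged and 18.4% of all young such pairs, so these p-values are not independent measurements.

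The deposited annotation places 13 of the 66 genes in the pathway of ATP-dependent chromatin remodelling, which 42 of all genes with a peak share. Of these 13, 1 was aged-only (SMARCA5, an ATPase that spaces nucleosomes), 5 were young-only and 7 were in both lists, and of the 42 these were 11, 15 and 16. Lysine degradation, a pathway that includes the lysine methyltransferases, was given to 12 of the 66 and to 26 of all genes with a peak, and the 12 were 5 aged-only, 4 young-only and 3 in both lists. The 26 were 9 aged-only, 12 young-only and 5 in both lists.

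Other chromatin genes were counted from 7 lists of partners and complexes. Of 187 such genes in the gene table or the peak lists, 68 (36.4%) had a peak, against 24.5% of all protein-coding genes. Of the 68, 19 (27.9%) were aged-only, 21 (30.9%) young-only and 28 (41.2%) in both lists. Over all genes with a peak these shares were 26.9%, 41.3% and 31.8%. Each single list held only 7 to 12 genes with a peak. Polycomb partners had 4 aged-only genes, including L3MBTL1 (2.88) and PHC1 (1.54), 4 young-only genes, including YAF2 (4.00) and JARID2 (2.33), and BCORL1 in both (3.35 in aged and 2.00 in young ovaries, without overlap). Partners of deacetylases had 3 aged-only genes, including GATAD2B (2.40) and SIN3A (2.17), 5 young-only, including MBD3 (2.92) and SAP18 (2.29), and 4 in both, including the corepressor gene NCOR1. Both NCOR1 pairs overlapped, an exon pair with folds of 1.90 in aged and 1.61 in young ovaries and a 3' UTR pair with 2.38 in aged (adjusted p of 0.0794, by the authors) and 3.08 in young ovaries. TBL1X, of the same corepressor complex, had 2 peaks at each age.

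Acetylation coactivators had 3 aged-only genes, including TAF1 (2.29 and 1.69) and TADA2A (1.92), 1 young-only gene, MSL2 (2.14), and 3 in both, including EPC1 (1.81 in aged and 1.64 in young ovaries) and JADE2. Other histone methylation genes had 3 aged-only members, including SMYD3 (2.18) and ASH1L (2.09), 4 young-only, including ASH2L (2.91) and WDR82 (1.95), and 2 in both, SUV39H2 and RIOX2. SUV39H2, a heterochromatin methyltransferase gene, had an aged peak of 5.12 that overlapped a young peak. Other remodelling genes had 4 aged-only members, including INO80C (2.00) and BICRA (1.67), 2 young-only, BAZ2A (2.03) and ERCC6 (1.53), and 5 in both. Of these BPTF had 2 peaks at each age, and RSF1 had 1 aged peak (1.5) and 4 young ones (1.77 to 2.40), none of them overlapping.

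Partners and readers of DNA methylation were shared in 6 of 10 cases, where 31.8% of all genes with a peak were, including MBD1 and CXXC5, with IDH2 (2.00) and GADD45B (1.87) among the young-only genes. Histone chaperones and heterochromatin genes were shared in 7 of 10 cases, including CHAF1B and ANP32B, with LMNB1 (2.03) aged-only and HMGN3 (3.00) and HMGA1 (1.55) young-only. In the partner lists 22.8% of 57 aged and 13.3% of 60 young peaks were labelled exon. Over all peaks these shares were 15.3% in the aged and 9.30% in the young list.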

How the data were processed

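Ovarian RNA of Cele black sheep was immunoprecipitated with an antibody against m6A at 2 ages and sequenced with an input. Per the labels' protocols, the total RNA kit was a stranded one. Neither the aligner nor the peak caller nor the build is given in the sources used here. ChIPseeker and DESeq2 are named without a role, per the submitters' processing notes. Per the file headers, the authors give for each peak a p-value, an adjusted p-value, log10 forms of both (used as a score) and a fold enrichment, a linear ratio whose denominator is not stated.

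From these, genes were selected by symbol, and 1 was added to each start so that positions are counted from 1. Chromosome numbers, lengths and gene ends came from the RefSeq gene table of ARS-UI_Ramb_v3.0, matched by gene ID for 99.5% of peaks in each list, whose own coordinates are not printed. A gene was shared if both lists held a peak in it. Peaks were matched by an overlap of 1 base on the same strand, introns included. Shares have Wilson intervals. Any chromatin gene could be named, and of each partner list up to 2 aged-only, 2 young-only and 2 shared genes by fold or number of peaks. The members and lists were chosen with earlier results of these data known. Overlap and counting code was tested on simulated data. Alternatives were an adjusted p of at most 0.01, a fold of at least 2, lists of equal length, the plus strand alone, exon and UTR labels only, other member rules and other overlap rules. No sequence is shown. Values of 2 genes that enter the counts are not reported here. Software was matplotlib 3.10.9, scipy 1.17.1, numpy 2.4.6, pandas 2.3.3 and Python 3.11.15.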

Additional observations from a re-analysis of the deposited data

How the results depend on the processing

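Of 97 alternative values, 84 stayed within 1.5 times (counts) or within the 95% interval (shares and medians) of those reported. With a fold of at least 2 there were 13 aged-only and 9 shared genes, 25% of young peaks overlapped the other list, and the median folds were 2.395 (aged) and 2.40 (young), which follows from the higher limit. The plus strand alone left 14 aged-only, 7 young-only and 17 shared genes of 38. The catalytic and remodelling prefixes alone left 13 shared genes of 42. Both settings leave out genes, which lowers counts. The young-only share also fell on the plus strand, to 18.4% (9.22 to 33.4) from 27.3% on both strands. Over all plus-strand genes it was 42.8%. The chromatin genes of the minus strand lay near the share of all minus-strand genes, so the low young-only share depended on strand. Chosen after seeing the data were leaving out BRD3OS, 1 peak per gene and peaks that cross no intron. Without intron-crossing peaks 17.02% of aged and 5.56% of young peaks were labelled exon, and 70.2% of aged and 72.2% of young peaks 3' UTR, since most exon labels lie on such peaks. The young-only share was lower than over all genes in each of the 6 settings run on both (fold, adjusted p, list length, strand, labels and introns), at 18.4% to 42.1% against 32.4% to 54.7%, but its interval held the value of all genes in 3 of them (fold, labels and introns). With a fold of at least 2 the aged exon share was 29.2% (14.9 to 49.2), an interval that holds the 15.2% of all aged peaks at that fold. No paired analysis was possible because each age has 1 immunoprecipitate and the ages share no replicate number. Depth is unknown, so a gene without a peak may be below detection.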
